A study of Danio rerio with 60 samples.

Results

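The 30 libraries described here are the columns of the raloxifene expression table, grouped by the letter A to E that closes each label, out of 60 libraries in the series. Each letter names 1 replicate set of 6 libraries, 1 from each dose group, so 5 sets were compared with dose group as a block. Every library held RNA from a pool of 20 whole zebrafish larvae of the AB/Tub background. The pools were kept from 72 to 120 hours post-fertilization (hpf) in multi-well plates, in E3 medium buffered with HEPES. They received raloxifene, a selective estrogen receptor modulator, at 20.1, 2.01, 0.201, 0.0201 or 0.00201 µM, or 0.5% carrier, which the labels do not name. Letters and replicate numbers run in step in the labels, but the labels do not say what a letter shares. Nothing in the labels tells whether the pools stem from separate clutches, so the p-values reflect the spread among these pools only. Each of the 44 gene lists used below, which cover the organs of a larva and common pathways, had at least 8 genes past the level filter. The question was which genes and tissues differed between sets at the same dose.

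Zebrafish larvae of this age are completing their organs on the last of the yolk. Liver, exocrine pancreas and intestine take up their secretory and digestive work, lens fibre cells fill with crystallins, and neurons extend synapses. Most of these tissues can be followed in whole-larva RNA by a few abundant transcripts that other tissues barely make. In RNA from whole larvae, more cells of a type and more RNA per cell cannot be told apart.

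The replicate set accounted for 77.2% of the variance of the 19241 genes tested, and the dose group for 5.53%. At an adjusted p under 0.05, 17772 genes (92.4%) differed between sets (limma, F test with Benjamini-Hochberg adjustment). Between the highest and the lowest set the difference was at least 2-fold for 9277 of them (48.2%), and the median gene spanned 0.97 log2 units. Over the doses, with the letter as a block, 352 genes (1.83%) passed the same test. The set took a larger share of variance than the dose in 18428 genes (95.8%). Of the 352 genes that changed with dose, 158 (44.9%) also differed at least 2-fold between sets, a share close to the 48.2% of all genes.

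**Figure D1:**
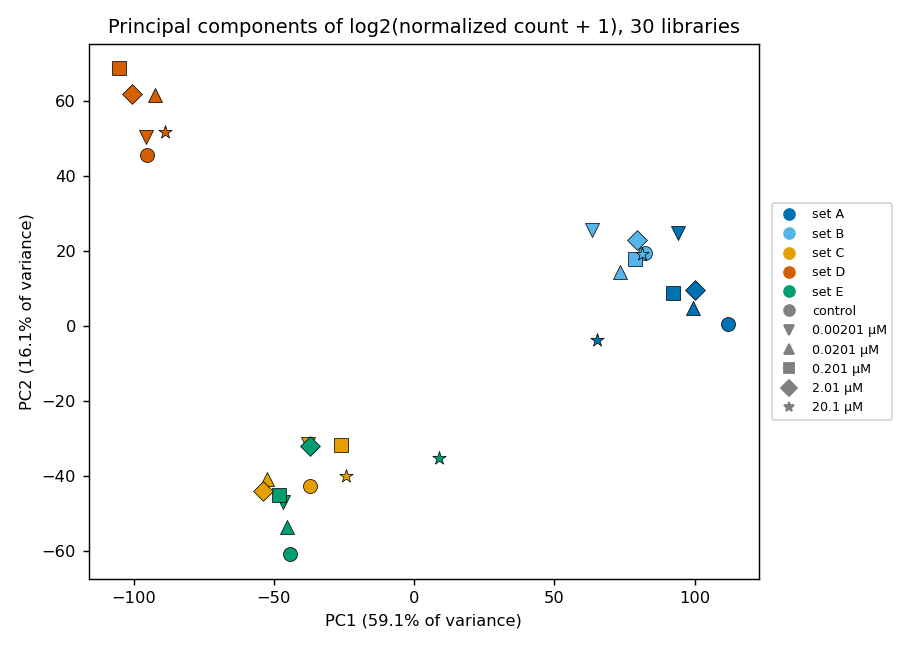
First and second principal component of log2(normalized count + 1) for the 30 libraries, with colour for the replicate set and marker shape for the dose. Sets A and B lie together at the right, set D at the upper left, and sets C and E overlap at the lower left, with the 20.1 µM library of set E between the groups.

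The 5 sets formed 3 clusters. Set A differed from set B at least 2-fold in 430 genes (2.23%), and set C from set E in 90 (0.468%). The largest contrast was A against D, with 7473 genes (38.8%), followed by B against D with 6250 (32.5%). A differed from C in 4755 (24.7%) and from E in 4731 (24.6%), and B differed from C in 4083 (21.2%) and from E in 4314 (22.4%). Set D differed from C in 2562 genes (13.3%) and from E in 2896 (15.1%). In 1118 genes all 12 libraries of A and B lay above all 18 others, and in 2217 they lay below them. The 6 libraries of D lay above the other 24 in 2046 genes and below them in 2316.

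**Figure D2:**
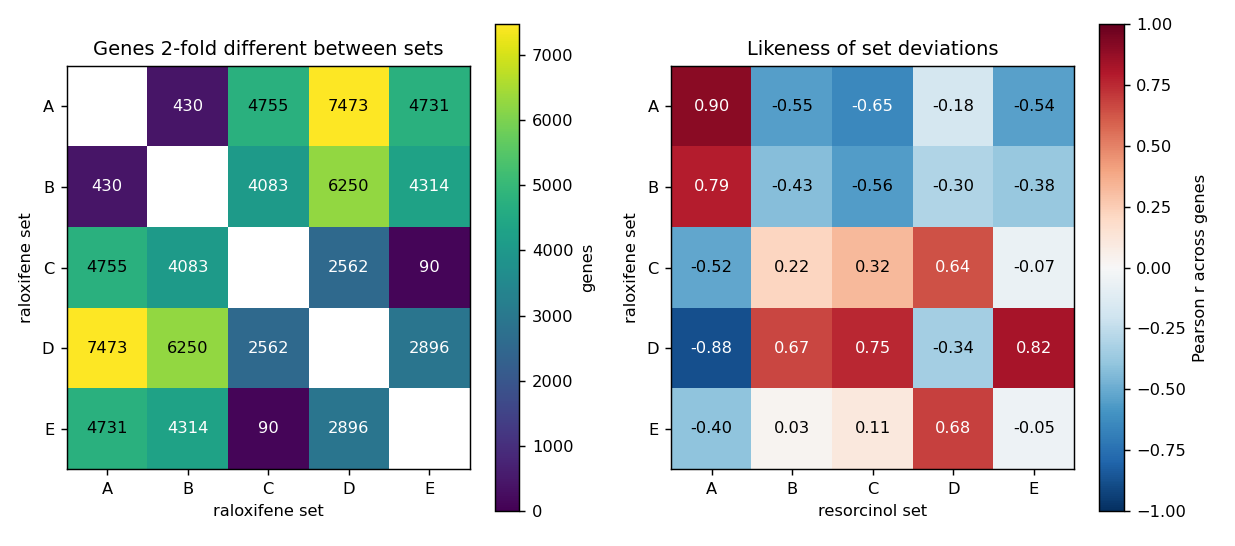
Left, number of genes at least 2-fold different between each pair of raloxifene sets. Right, Pearson correlation across 19058 genes between the set deviations of the raloxifene table (rows) and those of the resorcinol table (columns). The pairs A-B (430 genes) and C-E (90 genes) were the most alike, and raloxifene set A was most like resorcinol set A (0.90).

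Against the mean of the other 4 sets, D stood out by higher genes and A and B by lower ones. Set D was at least 2-fold higher in 4163 genes (21.6%) and lower in 848 (4.41%). Set A was higher in 699 (3.63%) and lower in 3359 (17.5%), and set B higher in 263 (1.37%) and lower in 2736 (14.2%). Set C was higher in 1070 genes (5.56%) and lower in 321 (1.67%), and set E higher in 1024 (5.32%) and lower in 507 (2.63%). The split depended on the scaling. With quantile normalization the higher genes made up 41.0% of the calls for A, against 17.2% here, 33.2% for B (8.8%), 51.5% for C (76.9%), 54.8% for D (83.1%) and 46.1% for E (66.9%). With library totals the median of all genes moved to -0.24 in A and in B and to 0.19 in C, in D and in E, and the higher share moved to 8.4% for A, 2.1% for B, 87.4% for C, 88.6% for D and 81.4% for E. Directions of single genes below are therefore relative to all genes of a library.

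Set differences recurred from dose to dose. For each library, its set deviation at that dose was compared across the 19241 genes with the mean of the same set at the other 5 doses, as a description. The correlation was 0.72 to 0.95 in 29 libraries and highest in set D (0.92 to 0.95). The exception was the 20.1 µM library of set E, at 0.417. That library also had fewer genes detected, 22814 against 23498 to 23723 in the other 5 of set E. The 20.1 µM library of set A had a correlation of 0.73 and the largest residual spread, 0.43 log2 units. Without the set E library 9429 genes differed at least 2-fold between sets, and without the set A library 9336. Depth medians were 8.84 M reads in A, 10.28 in B, 10.14 in C, 10.0 in D and 9.1 in E, over a range of 7.44 to 10.98 M. Detected genes numbered 22239 to 23385 in A and 23610 to 24215 in D. The 20 most abundant genes of a library took 24.4 to 26.1% of reads in B, 19.4 to 23.0% in A and 17.2 to 19.8% in C, D and E. The part of these differences in the counts of genes was not tested.

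The lens differed most. Crystallins are the soluble structural proteins that fill lens fibre cells. All 44 tested members of the lens list, of 55 in the table, differed at least 2-fold between sets. All 44 were highest in D with no overlap with the other 24 libraries. Over all genes the shares were 48.2% and 10.63%. The summed level was 4963 to 9333 (median 6683) in A and 138417 to 195074 (median 175084) in D, 25.0-fold apart by set means. It was 7706 to 17267 (median 10909) in B, 23556 to 78904 (median 41738) in C and 30327 to 51826 (median 39514) in E, so A and B lay below C and E and these below D. In the 5 carrier controls alone the sums were 4963 in A, 7706 in B, 40582 in C, 171773 in D and 32121 in E, which is the same picture without raloxifene.

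The gamma-M crystallins, a fish family of near-identical genes among which reads may be divided uncertainly, showed it gene by gene. crygm2d3 had 2.83 to 28.9 (median 14.97) in A, 24.3 to 189 (median 27.8) in B and 183 to 1193 (median 497) in C, then 255 to 732 (median 450.5) in E and 2398 to 3323 (median 2893) in D. The libraries of A were lowest and those of D highest, D without overlap. Its log2 difference from the other sets was -4.79 (SE 0.33) in A and 4.77 in D (limma, adjusted p = 5.7e-13 and 3.33e-13). crygm2d19, crygm2d7, crygm2d4 and crygm2d12 had the same order, with log2 differences in D of 5.15, 4.61, 4.72 and 4.84. crygm2d9 and crygm2d20 were near absent in A, at 0 to 2.55 (median 0.569) and 0 to 2.29 (median 0.569), and reached 298 to 465 (median 371) and 223 to 336 (median 300.4) in D.

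Other crystallin classes followed. crybgx, a beta-gamma crystallin gene, had 793 to 1431 (median 941) in D and at most 96.5 in any other library. This was the largest single contrast of set D among the named genes, at 6.30 log2 units (SE 0.32, limma adjusted p = 3.14e-16). CRYBA2 ENSDARG00000041925, a beta crystallin, had 34.01 to 103 (median 62.4) in A and 5041 to 7273 (median 6118) in D, and si:dkey-57a22.15, which the name table does not describe, had 0 to 2.24 (median 0.500) in B and 205 to 312 (median 250.3) in D. In neither gene did D overlap another set.

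Liver genes were higher in set D. The list holds genes of secreted plasma proteins, clotting factors and complement. Of 48 tested members, 46 differed at least 2-fold between sets, 44 were at least 2-fold higher in D, and 43 had all 6 D libraries above the other 24. These counts stand beside 48.2%, 21.6% and 10.63% of all genes. The median member stood 3.90 log2 units above the other sets in D, and at -0.10 in A, -0.88 in B, -1.25 in C and -1.47 in E. The summed level was 158173 to 187148 (median 171008) in D and 18886 to 31099 (median 21929) in E, 7.35-fold by set means, and highest in D at 6 of 6 doses. Sums in A, B and C lay between 24029 and 39515.

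APOB, the structural apolipoprotein of lipid particles, had 336 to 598 (median 473) in D and at most 45.8 elsewhere (4.95 log2, SE 0.27, limma adjusted p = 1.19e-15). FGG, a fibrinogen chain, had 443 to 600.0 (median 541) in D and 3.56 to 20.8 (median 12.4) in E. ITIH2, a hyaluronan-binding plasma protein, had 492 to 754 (median 647) in D and 8.85 to 18.04 (median 15.8) in C. Each of these had D apart from all other libraries, and none passed the dose test (limma F test, adjusted p = 0.703, 0.672 and 0.592). The complement genes c3a.1 and c9 had medians of 1378 and 1021 in D and 35.8 and 33.0 in E, and the liver fatty acid binding protein fabp10a 6134 and 512. kng1, the kininogen gene, stayed at or under 3.97 in the 6 libraries of C and had 119 to 166 (median 142) in D.

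Some acute phase and iron genes and many detoxification genes, made partly in the liver, were also higher in D. Of 30 tested acute phase and inflammation genes 11 were at least 2-fold higher in D and 1 lower, beside 21.6% and 4.41% of all genes, and the list's median there was 0.41 log2 units, or 0.06 with quantile normalization. crp2, a C-reactive protein gene, had 208 to 479 (median 327) in D and 1.52 to 6.27 (median 2.95) in C, and hamp, the iron hormone hepcidin, had a median of 215 in D and 7.60 in C. Of 77 tested drug metabolism genes 35 were at least 2-fold higher in D and 1 lower, beside the same shares of all genes, with a median of 0.90 log2 units. Among them cyp2ad2, a cytochrome P450, had a median of 756 in D and 143, 132, 123 and 105 in A, B, C and E. CYP1A1, the dioxin-responsive P450, had a median of 254 in D and 45.5 in E. Of the 8 tested genes of the hatching gland and yolk list, 3 were higher and 1 lower in D, beside 21.6% and 4.41% of all genes. The 3 higher ones were apoa1a and apoc2, which encode lipoprotein proteins, and MTTP, which loads lipid onto APOB. They are not hatching enzymes, and the list's sum was 3.64-fold higher in D than in E.

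The exocrine pancreas separated the sets in another order. Its list holds the digestive proenzymes of acinar cells. All 26 tested members differed at least 2-fold between sets: 24 were higher in D, 18 higher in A, 25 lower in C and 25 lower in E. Over all genes the shares were 48.2%, 21.6%, 3.63%, 1.67% and 2.63%, in the same order. Sums were 15923 to 25299.5 (median 19926) in A, 6738 to 19850.2 (median 10286) in B and 20628 to 57633 (median 34432) in D. They were 1544 to 4477 (median 3498) in C and 1317 to 3745 (median 2797) in E, 13.4-fold below D by set means in E. Sets A and D overlapped here: in the carrier control the sum was higher in A (25299.5) than in D (20628), and D was highest at the other 5 doses.

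The chymotrypsinogen gene ctrb.1 had 609.8 to 1230.1 (median 836) in A, 1324 to 4477 (median 2401) in D and 39.6 to 138 (median 98.7) in E. ctrb.2, its near copy, had 324 to 1335 (median 809) in D and 4.06 to 39.0 (median 30.3) in E. In both genes C and E stood below A and D without overlap, and the log2 differences of D were 3.40 and 3.86. The endocrine pancreas list did not follow. Of its 11 tested genes 3 were higher in D, near the 21.6% of all genes, and 2 lower, beside 4.41%. Its summed level was lowest in D at 6 of 6 doses and highest in A, with 3393 to 4068 (median 3600.1) and 6717 to 10139.9 (median 7867), 2.22-fold apart by set means. The list's median in D took either sign, 0.14 log2 units here and -0.45 with quantile normalization.

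Intestinal genes were again highest in D. Of 36 tested members 35 differed at least 2-fold between sets, and 23 were higher and 0 lower in D (median 1.70 log2 units). Over all genes the shares were 48.2%, 21.6% and 4.41%. Sums were 23207 to 58982 (median 39514) in D and 11113 to 16449 (median 12461) in E, 3.12-fold by set means and highest in D at 6 of 6 doses. RBP2 ENSDARG00000093774, a retinol-binding protein of absorptive cells, had 242 to 352 (median 292) in D and at most 60.8 elsewhere. chia.1, an acidic chitinase, had 935 to 3889 (median 1955) in D and 75.1 to 239.9 (median 108) in E, and the peptide transporter SLC15A1 ENSDARG00000044528 had 225 to 1181 (median 481) in D and 39.6 to 53.4 (median 44.8) in E. Libraries of D were above all others in each of these 3 genes.

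**Figure D3:**
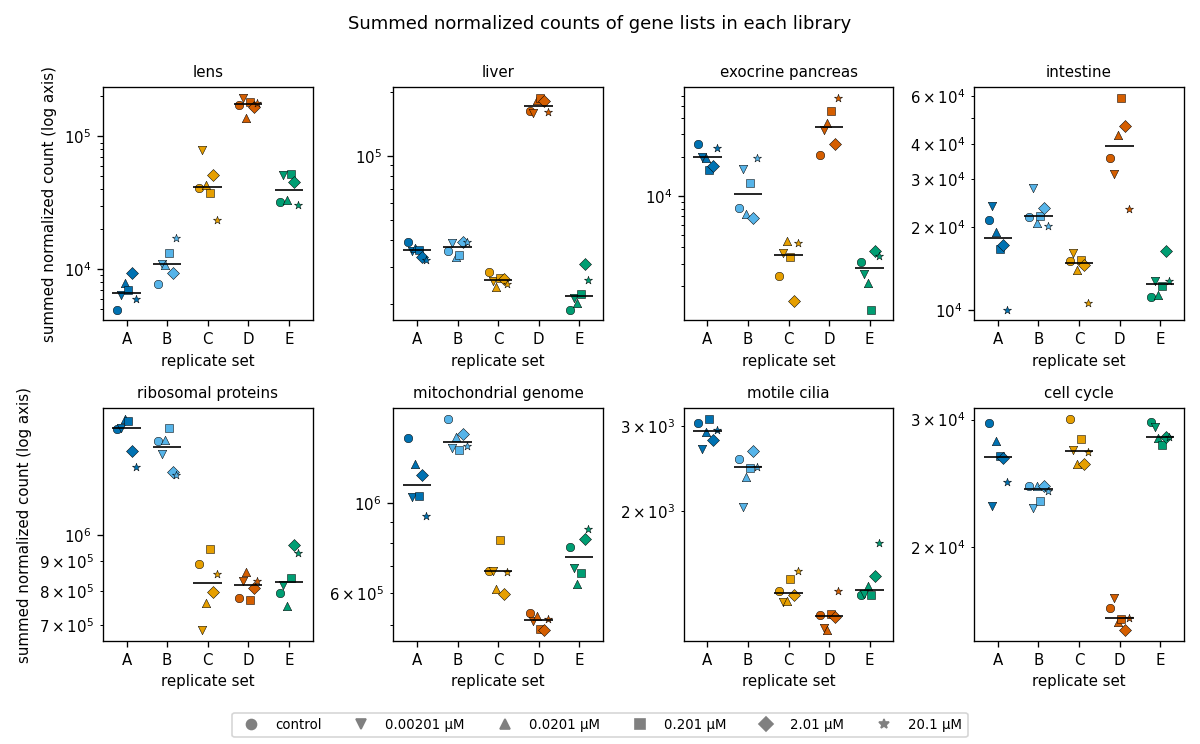
Summed normalized count of 8 gene lists in each library (log axis), by replicate set, with marker shape for dose and a line at the set median. Lens and liver sums of set D lie above all other libraries at every dose, ribosomal protein sums of A and B lie above those of C, D and E, and cell cycle sums are lowest in D.

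Heart muscle genes were higher in D and lower in C and E. Of 23 tested members, 12 were higher in D, 7 lower in C and 9 lower in E, beside 21.6%, 1.67% and 2.63% of all genes. MYL7, a heart myosin light chain, had 164 to 306 (median 218) in D, 14.0 to 60.8 (median 38.0) in A and 10.8 to 27.0 (median 20.3) in B. It had 3.03 to 6.31 (median 4.60) in C and 3.05 to 8.24 (median 3.67) in E. MYH7, a myosin heavy chain of heart and slow muscle, had 114 to 255 (median 161) in D and 2.61 to 12.1 (median 5.90) in C. Libraries of D lay above all others in both genes, and those of C and E below all of A, B and D. The cardiac actin actc1a differed less, with 654 to 1347 (median 793) in D and 169 to 257 (median 208) in E, and its D and B libraries overlapped. The order of the summed heart level turned with the scaling. By normalized counts it was highest in B, and as a share of all reads of a library it was highest in D, with a mean of 2.47% against 2.27% in B.

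Among muscle genes myhb, a myosin heavy chain, had 154 to 377 (median 293) in A, 197 to 469 (median 297) in D, 13.9 to 22.7 (median 19.3) in C and 13.1 to 22.2 (median 18.1) in E, so A and D were alike and C and E low. Of 37 fast muscle genes 10 were higher in D and 0 lower, where 21.6% of all genes were higher, a share close to that of the list, and 4.41% lower. All D libraries lay above the other 24 in 11 of the 37, beside 10.63% of all genes, and the list's median in D was 0.63 log2 units. ckma, the muscle creatine kinase, had a median of 37470.2 in D and 7045 in A. Of 14 slow muscle genes 5 were higher in D and 0 lower, beside the same shares of all genes.

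Neuronal genes showed 2 opposite patterns. In the first, transcripts were nearly absent from A and B and present in C, D and E. PCSK1, a prohormone convertase, had 3.44 to 12.9 (median 5.61) in A and 1.00 to 11.1 (median 7.13) in B, but 139.6 to 207 (median 156) in C, 198 to 239 (median 224) in D and 61.7 to 181 (median 155) in E. All 12 libraries of A and B lay below all 18 others. syn1, a synaptic vesicle protein, had 1.12 to 6.83 (median 4.16) in B and 91.5 to 135 (median 104) in D, and GPM6B ENSDARG00000005739, a neuronal membrane proteolipid, had 2.83 to 9.10 (median 4.77) in A and 189 to 238 (median 207) in D. CLSTN3, a postsynaptic adhesion protein, had 2.22 to 16.6 (median 10.08) in A and 301 to 369 (median 342) in D, and prrt1, an AMPA receptor partner, had 0 to 10.24 (median 1.98) in A and 100.4 to 119.8 (median 108) in D. The kinase gene SBK1 had 0 to 4.00 (median 2.09) in B and 60.1 to 74.1 (median 64.5) in D. In the carrier controls PCSK1 was 5.67 in A, 3.32 in B, 164 in C, 234 in D and 158 in E.

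Of 49 tested neuronal genes, 13 had all libraries of A and B below the others, against 2217 of 19241 genes (11.5%). They included the vesicular glutamate transporter SLC17A6 ENSDARG00000001127, with medians of 6.11 in A and 163 in D, mapta, which encodes a tau protein (50.2 and 719), and vamp2, a vesicle fusion protein (52.4 and 683). The second pattern ran the other way. In 19 of the 49 genes all D libraries were below the other 24, against 2316 of all genes (12.04%). Most of these shifts were under 2-fold: in D 4 of the 49 were at least 2-fold lower and 8 higher. Over all genes the shares were 4.41% and 21.6%. The list's median was -0.33 log2 units in D and -0.30 in B. With quantile normalization B was lower, at -0.32 against -0.31 in D, and with library totals at -0.55 against -0.20. Among the larger differences, GNG3, a neuronal G protein subunit, had a median of 4462 in A and 1224 in D. The list's summed level was lowest in D, 1.66-fold below C by set means. As a share of library reads D and B overlapped, at 0.756 to 0.879% and 0.805 to 0.889%.

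Among the named genes, those of 3 neuropeptides or peptide hormones, an opsin and a glutamate receptor subunit were lowest in D. NPY, an appetite-related neuropeptide, had 62.9 to 90.9 (median 67.0) in D and 202 to 366 (median 258) in A, and CRH, the stress-axis releasing hormone, had 75.8 to 127 (median 101) in D and 257 to 371 (median 283) in A. The libraries of D lay below the other 24 in both. CRH also changed with dose (limma F test, adjusted p = 0.00724). nppc, a natriuretic peptide gene, had 30.5 to 58.1 (median 38.4) in D and 87.9 to 118 (median 103) in A, and its D libraries overlapped those of B, C and E. These 3 were the widest members of the pituitary and endocrine hormone list. Of its 18 tested genes 5 were at least 2-fold lower in D and 1 higher, beside 4.41% and 21.6% of all genes. All D libraries lay below the other 24 in 2 of the 18, a share near the 12.04% of all genes. parapinopsinb, an opsin of the pineal organ, had 826 to 1109.7 (median 988) in A, 623 to 885 (median 748) in B, 199 to 262 (median 234) in C, 197 to 317 (median 229) in E and 43.9 to 74.1 (median 63.4) in D, so that A and B were high, C and E intermediate and D low without overlap between the 3 clusters. Its log2 difference in D was -2.87 (SE 0.08, limma adjusted p = 3.89e-21). The glutamate receptor subunit grin2db had the same order, with 245 to 360.0 (median 315) in A and 13.8 to 24.03 (median 20.9) in D.

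Photoreceptor genes as a list varied less than genes at large: 20 of 59 (33.9%) differed at least 2-fold, against 48.2% of all genes. In D 8 of the 59 were higher and 2 lower, beside 21.6% and 4.41% of all genes. All 6 libraries of D lay above the other 24 in 6 of them and below in 8, near the 10.63% and 12.04% of all genes. The list's median in D was -0.11 log2 units, although the recoverin gene RCVRN ENSDARG00000019902 had a median of 158 in A and 847 in D. The summed level of the motile cilia genes was highest in A and lowest in D, at 2684 to 3106 (median 2933) and 1135 to 1369.6 (median 1214), 2.40-fold by set means. Much of that gap lay in 1 gene, CFAP45, a ciliary microtubule protein, with a median of 1136 in A and 112 in D. The list's median was 0.43 log2 units in A, and it was lowest not in D (-0.18) but in C (-0.32) and E (-0.27), although with quantile normalization D was lowest (-0.73). Of the 28 tested, 8 differed at least 2-fold, and in 3 all D libraries lay below the other 24, a share near the 12.04% of all genes.

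Several genes were highest in A and varied within sets as well, among them members of the notochord and the cartilage and bone lists. vimr1, map1lc3cl and otos2 were named as the highest contrasts of set A and are in neither list. vimr1, a vimentin-related filament gene, had 589 to 1599 (median 1532) in A, 64.6 to 541 (median 360.3) in B, 14.2 to 248 (median 103) in C, 167 to 382 (median 262) in D and 7.81 to 137 (median 88.2) in E. It was highest in A at 6 of 6 doses, with no overlap between A and another set, while the libraries of B overlapped those of C, D and E. map1lc3cl, related to the autophagy protein LC3, had 444 to 1338 (median 819) in A and 13.9 to 98.5 (median 49.1) in E and also differed between doses (limma F test, adjusted p = 0.0401). otos2, an otospiralin-like gene, had 105 to 303 (median 153) in A and 3.47 to 28.8 (median 18.5) in E. tbxta, the notochord transcription factor Brachyury, had 93.6 to 213 (median 121) in A and 5.52 to 30.5 (median 17.4) in C, and it changed with dose (adjusted p = 0.0238). col9a1b and MATN3 ENSDARG00000069245, both of cartilage matrix, had 379 to 956 (median 601) and 854 to 1552 (median 1119) in A, and 29.5 to 158 (median 86.6) and 46.0 to 438 (median 237) in E. cmn, which encodes the notochord sheath protein calymmin, had 198 to 368 (median 255) in A and 7.81 to 85.6 (median 48.3) in E. Libraries of A overlapped those of B in map1lc3cl, tbxta, MATN3 ENSDARG00000069245 and cmn. They overlapped those of D in col9a1b and cmn, and cmn was highest in A at 4 doses and in D at 2.

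The A and B against C, D and E split was rare in these lists. All A and B libraries lay below the others in 1 of 34 tested cartilage and bone genes and 1 of 21 notochord genes. They lay above the others in 0 of either list. Over all genes the shares were 11.5% below and 5.81% above. The 2 genes were SOX9 ENSDARG00000003293 and ca2. SOX9 ENSDARG00000003293, a cartilage transcription factor, had 12.2 to 25.0 (median 13.5) in A, 11.7 to 27.3 (median 15.6) in B and 124 to 153 (median 145) in D. ca2, a carbonic anhydrase, had 12.6 to 21.6 (median 16.07) in A and 132 to 192 (median 139) in D. In the cartilage and bone list 12 of 34 tested genes were higher in D, 8 higher in A, 7 lower in C and 11 lower in E, beside 21.6%, 3.63%, 1.67% and 2.63% of all genes. In the notochord list 6 of 21 were higher in D, near the 21.6% of all genes, and 4 higher in A, beside 3.63%.

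Ribosomal protein genes and mitochondrial transcripts were higher in A and B. Ribosomal proteins build the ribosome, and the 13 mitochondrial genes encode respiratory chain subunits. Of 78 ribosomal protein genes, 62 had all 12 libraries of A and B above the other 18, against 1118 of 19241 genes (5.81%). The shift was moderate, with medians of 0.70 log2 units in A, 0.57 in B, -0.39 in C, -0.48 in D and -0.36 in E. With quantile normalization the signs held and the medians were smaller, at 0.28 in A, 0.17 in B, -0.07 in C, -0.27 in D and -0.06 in E. Sums were 1303500.0 to 1577310.0 (median 1517690.0) in A, 1263880.0 to 1522680.0 (median 1410770.0) in B and 773327 to 863288 (median 821940.0) in D. RPL38 had a median of 13765 in A and 4453 in D.

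All 13 mitochondrial genes differed at least 2-fold between sets, against 48.2% of all genes. Sums were 1356550.0 to 1622660.0 (median 1421420.0) in B and 484376 to 534312 (median 513594) in D, 2.84-fold by set means. B was highest and D lowest at 6 of 6 doses. MT-CO3, a subunit of cytochrome oxidase, had 211954 to 250903 (median 223189) in B and 69923 to 77607 (median 74584) in D. MT-ND6, a complex I subunit, had 21095 to 27218 (median 23163) in A and 6759 to 8126 (median 7444) in D, and mt-atp8, an ATP synthase subunit, had 1944 to 2278 (median 2034) in B and 482 to 797 (median 672) in D. These libraries were made by poly(A) selection, per the labels' protocols. The share of reads in the 20 top genes was highest in B and next in A, where it overlapped C and D. Its part in the ribosomal and mitochondrial difference was not tested.

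The cell cycle list was summed lowest in D at 6 of 6 doses, at 15346 to 17004 (median 15949), and highest in E, at 27667 to 29772 (median 28401), 1.78-fold by set means. The list's median in D was 0.03 log2 units, unlike the sum, but -0.17 with quantile normalization. Of 53 tested members 1 was at least 2-fold higher and 1 lower there, beside 21.6% and 4.41% of all genes. In A 7 of the 53 were lower and 0 higher, beside 17.5% and 3.63% of all genes. In B 4 were lower and 0 higher, beside 14.2% and 1.37%. The list's median was -0.34 log2 units in A and -0.38 in B, so the 2 genes next given differed more than most members. RRM2 ENSDARG00000020711, a subunit of the enzyme that makes deoxynucleotides, was near absent in B, with 0 to 1.12 (median 0.541), and had 49.7 to 95.3 (median 62.8) in C. CDK1, the mitotic kinase, had medians of 18.7 in A, 14.3 in B, 64.6 in C, 56.7 in D and 66.7 in E. Of 44 circadian clock genes 14 were lower in A and 13 in B, beside 17.5% and 14.2% of all genes, and in D 12 were higher and 2 lower, beside 21.6% and 4.41%. The list's median was -0.16 log2 units in D, -0.06 in A and 0.24 in C. Its summed level was lowest in D at 6 of 6 doses (35649.9 to 42592 (median 39066)) and highest in A (45050.3 to 60546 (median 54914)). As a share of library reads it was lowest in B and highest in C, with a mean of 0.600% in C, 0.552% in E and 0.520% in A. Genes that were low in A included tefb, a clock output factor, with medians of 137 in A and 1347 in D, and CLOCK ENSDARG00000003631, with 26.1 and 200.4.

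A single transcript cut across the 3 clusters. rps11l, annotated as like ribosomal protein S11, had 284 to 514 (median 428) in A, 252 to 551 (median 438) in B and 218 to 348 (median 272) in E, and 3.49 to 32.7 (median 14.0) in C and 3.46 to 52.3 (median 10.9) in D. The 12 libraries of C and D thus lay below the 18 of A, B and E, although C and E differed at least 2-fold in 90 genes only. Its log2 difference was -3.65 in C (SE 0.34, limma adjusted p = 2.39e-09) and 1.90 in E. In the carrier controls it was 444 in A, 393 in B, 32.7 in C, 32.0 in D and 280.4 in E. Because it resembles other ribosomal protein genes, its reads may be divided uncertainly.

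In 19 genes at least 1 whole set stayed under a normalized count of 5 while all 6 libraries of another set were at 50 or more. D was on in each. Besides crygm2d9, crygm2d20, si:dkey-57a22.15, kng1 and SBK1, ENSDARG00000077872, which has no symbol, had 0 to 1.19 (median 0.845) in E and 109 to 199 (median 149) in D. Genes without a described role were also among those with the largest contrasts. si:ch211-212c13.8 had 219.7 to 369 (median 302) in D and 1.19 to 10.4 (median 3.93) in E, and si:ch211-160d14.9 had 5.77 to 13.1 (median 8.12) in D and 69.3 to 200.3 (median 109.6) in B. si:cabz01036006.1 had 162 to 292 (median 247) in B and 23.1 to 60.5 (median 40.7) in E. zgc:113232 had 96.6 to 250.0 (median 168) in A and 0 to 42.8 (median 10.22) in E, with overlap of B, C and D.

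**Figure D4:**
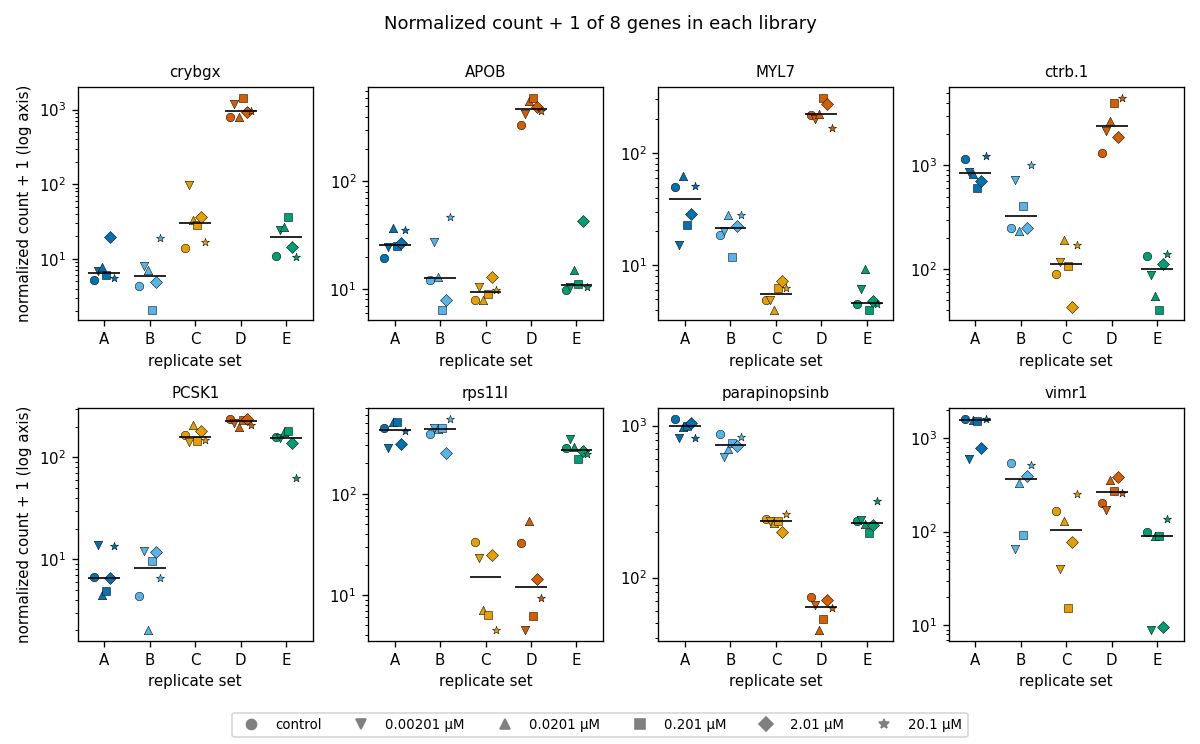
Normalized count + 1 (log axis) of 8 genes in each library by replicate set, with marker shape for dose and a line at the set median. crybgx, APOB and MYL7 are highest in D, PCSK1 is near absent in A and B, rps11l is low in C and D, parapinopsinb falls from A and B over C and E to D, and vimr1 spreads widely within sets.

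Some gene groups varied less between sets than genes at large. At least 2-fold differences were found in 8 of 40 oxidative stress genes (20.0%), 8 of 28 motile cilia genes (28.6%), 11 of 32 heat shock genes (34.4%) and 8 of 23 antigen presentation genes (34.8%), beside 48.2% of all genes. Of 9 tested odorant receptors 1 differed between sets and 9 differed between doses, beside 92.4% and 1.83% of all genes. All 98 odorant receptors in the table summed to only 44.4 to 334 per library, and the log2 scale used understates changes of low genes. Directions given above for lists did not change sign under TMM, quantile or library total scaling, or with edgeR or DESeq2, among list medians beyond 0.25 log2 units. The 5 exceptions were the olfactory neuron and the neutrophil and macrophage lists in D, the antigen presentation list in A and in D, and the odorant receptor list in B, none of which is given a direction here.

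**Figure D5:**
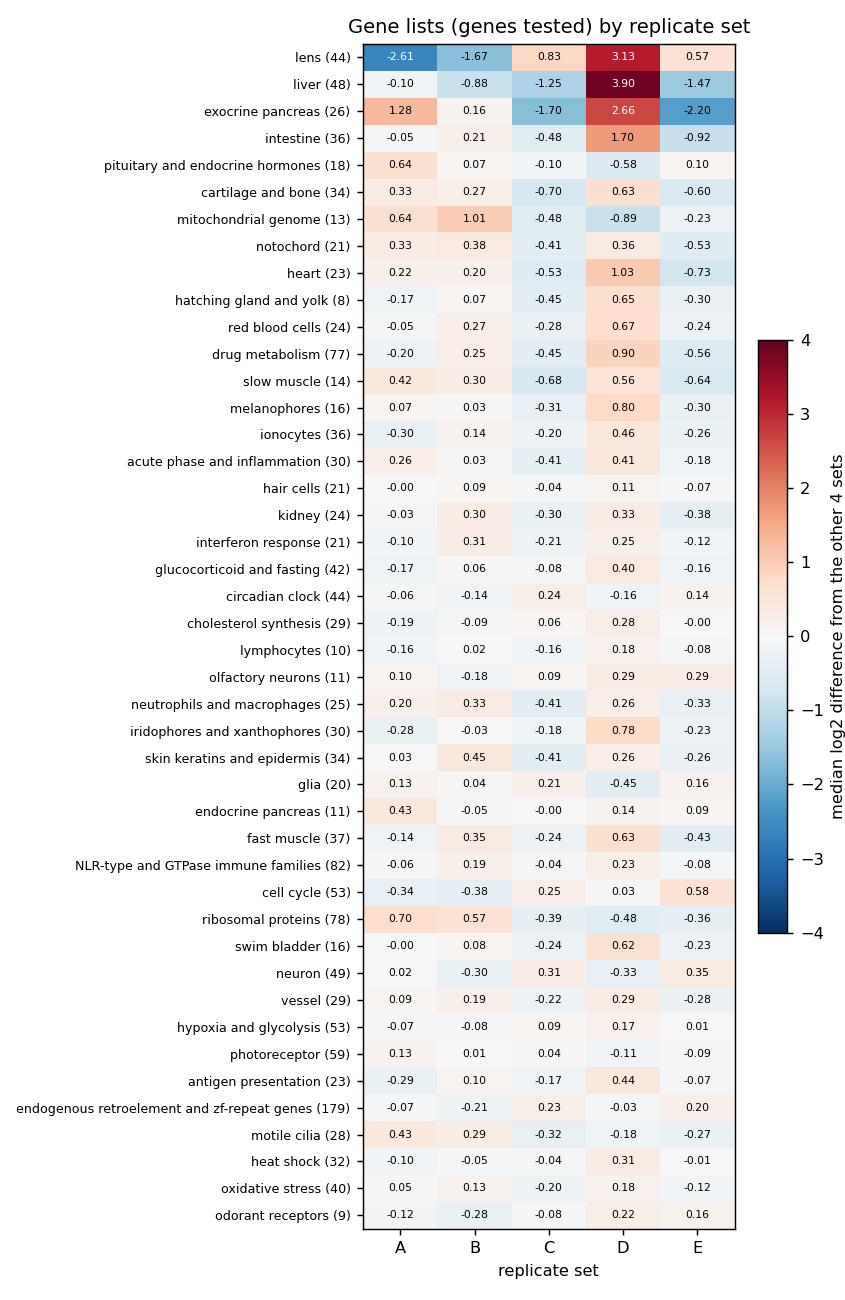
Median log2 difference of each gene list in 1 replicate set from the mean of the other 4 sets, lists ordered by their median range, with the number of genes tested in parentheses. Lens (3.13), liver (3.90) and exocrine pancreas (2.66) have the largest medians in set D, and most lists lie near 0 in the other sets.

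The resorcinol table, made from larvae of the same background over the same hours and normalized separately, gives a second series of 5 lettered sets. By their descriptions these larvae received resorcinol at 405, 40.5, 4.05, 0.405 or 0.0405 µM, or 1% carrier, although titles of dosed samples name raloxifene. The 405 µM library of resorcinol set A had 30.74 M reads, where the others had at most 12.13 M. The part of this depth in the values below was not tested. There 17295 of 19583 genes (88.3%) differed between letters, and 8133 (41.5%) at least 2-fold. Across 19058 shared genes, as a description, deviations of raloxifene set A correlated at 0.90 with those of resorcinol set A, and those of raloxifene set B at 0.79 with the same set. Raloxifene set D correlated at 0.82 with resorcinol set E, 0.75 with C, 0.67 with B and -0.88 with A. Each deviation is taken from the other 4 sets of its own table, so these correlations are not independent of each other. Sets C and E of raloxifene were closest to resorcinol set D, at 0.64 and 0.68. Beyond A, letters did not match: the same-letter values were -0.43 for B, 0.32 for C, -0.34 for D and -0.05 for E. The same 4 tissues led in another order, with a median range of 3.47 log2 units for liver, 3.30 for exocrine pancreas, 2.24 for intestine and 2.15 for lens, which was the widest in the raloxifene table, beside 0.87 for all genes. The liver median was highest in resorcinol set E (2.31), as was the lens median (1.39).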

How the data were processed

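RNA from 60 pools of larvae was sequenced after poly(A)-selecting, stranded library preparation, per the labels' protocols, and the 30 raloxifene libraries were analysed here, with the 30 resorcinol libraries set beside them. For either compound the authors deposited a table with Ensembl genes in rows. Its values are a signal that the authors made by scaling whole reads with a library-wide factor, as deposited, and are called normalized counts here. The submitters' processing notes name cutadapt, STAR, DESeq2 and the build GRCz11, without versions. How reads were assigned to genes and strands is not given in the sources used here, so a gene and its antisense partner may share reads. Whole reads were recovered for 100% of values at a tolerance of 0.1 read.

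The tests used log2(normalized count + 1) in limma 3.58.1 (R 4.3.3) with an intensity trend and terms for dose group and replicate letter. This scale understates changes of low genes. Genes needed 10 or more in 5 or more of 30 libraries, which left 19241 of 27281. A gene high in 1 set alone can pass this filter. P-values were Benjamini-Hochberg adjusted over all of them, with a threshold of 0.05 and, where stated, a 2-fold minimum. Spreads are given as lowest, median and highest of the 6 libraries of a set. The deposited values are not counts, so the count models of DESeq2 1.42.0 and edgeR 4.0.16 (quasi-likelihood test) served as alternatives, on recovered reads. The test was also tried on simulated data.

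Named genes were the 3 highest and 3 lowest contrasts of each set, the 10 widest ranges, the 3 widest members of each list whose median range was 1.5 times that of all genes (means of 50 or more), and 6 genes off in a whole set and on in another. A gene named by this rule is not reported here. Other list members were picked after their values were seen. The 44 gene lists, matched to 24960 named identifiers, were chosen with earlier results of these data known. Identifiers follow symbols that several genes share. The replicate letters pair the samples, as the deviations of each library correlated with those of its set at the other doses (lowest r 0.417). Each table was tested separately. Alternatives were other scalings, filters, pseudocounts and tools, and leaving out sets, doses or libraries. No genome or sequence was used.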

Additional observations from a re-analysis of the deposited data

Results flagged for a closer look

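Within each set of 6 libraries, 123 groups of values were examined for a library far from the other 5, and 8 had one, where chance gives about 1 in 20. The 20.1 µM library of set E stood out in several. It had 22814 genes detected against 23498 to 23723 in the other 5. GPM6B ENSDARG00000005739 was at 62.9 in it against 162 to 210.1, and the pituitary and endocrine hormone sum was 1271 against 943 to 1063. In set A the 20.1 µM library had the highest SOX9 ENSDARG00000003293, at 25.0 against 12.2 to 15.3. In set E the intestine sum was highest at 2.01 µM, 16449 against 11113 to 12799, and the cartilage and bone sum was lowest in the carrier control, 18422 against 22511 to 24545. In set D the 0.00201 µM library had the lowest depth, 7.57 M reads against 9.41 to 10.29 M. In set B the carrier control had the largest share of reads in its 20 top genes, 26.1% against 24.4 to 24.9%. The causes were not tested.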

How the results depend on the processing

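Of 499 alternative values of the 23 counts, 421 were within 1.5 times the count given, and all 1386 alternative values of the 63 set contrasts of named genes kept their direction and their call. With a pseudocount of 10, set counts became 374 higher and 1717 lower for A, 86 and 1355 for B, 273 and 145 for C, 2500 and 474 for D, and 263 and 207 for E, and pair counts 79 for A-B, 2897 for A-C, 2835 for A-E, 2398 for B-C, 2497 for B-E, 1449 for C-D, 23 for C-E and 1634 for D-E. With a level minimum of 50, where fewer genes are tested, 5390 genes differed 2-fold between sets, with 431 higher and 1741 lower for A, 132 and 1446 for B, 608 and 203 for C, 2084 higher for D, and 601 and 301 for E. Pair counts were then 172 for A-B, 2618 for A-C, 4402 for A-D, 2621 for A-E, 2209 for B-C, 3528 for B-D, 2367 for B-E, 1346 for C-D, 40 for C-E and 1490 for D-E. Quantile normalization gave 1311 higher and 1883 lower for A, 888 and 1786 for B, 581 and 548 for C, 2552 and 2101 for D, 592 higher for E and 239 for A-B. Library totals gave 378 higher for A, 76 for B and 1631 for C, and edgeR 422 higher for B. For these scalings, filters and tools the cause was not tested beyond what their construction fixes.

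The dose count of 352 became 15 with no replicate block, 609 with array weights and 772 with DESeq2. Left out 1 at a time, a set, a dose group or a doubted library moved it over 6 to 360, with 6 without the 20.1 µM group, 229 without replicate 1 (set A), 113 without replicate 2 (B), 170 without replicate 3 (C), 206 without replicate 4 (D) and 226 without replicate 5 (E). The 9277 genes moved over 5805 to 9429, lowest without replicate 4, and the 17772 over 14841 to 17812. Set counts moved over 487 to 1103 higher and 2396 to 4070 lower for A, 199 to 699 and 1851 to 3659 for B, 179 to 2188 and 233 to 606 for C, 3360 to 4538 and 547 to 1109 for D, and 165 to 2054 and 318 to 844 for E. Leaving out a set changes the sets it is compared with. C-E moved over 49 to 101, with 49 without 0.00201 µM and 54 without 0.0201 µM, and A-B over 307 to 581.

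A single library per set and dose leaves no test of whether a set difference changes with dose. Genes near 1 read per library, such as crygm2d9 and crygm2d20 in set A, are limited by depth, and their log2 differences depend on the pseudocount. The pseudocount also enters the log2 differences of the other low crystallins of set A. The alternatives for pairs of sets, library totals and the 2 single libraries were chosen after seeing the data.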

Other observations

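Beyond the tissues above, pigment and ion-transport genes differed between sets in the same direction as the liver. Of 30 tested iridophore and xanthophore genes 11 were at least 2-fold higher in set D and 0 lower, with a median of 0.78 log2 units, and of 16 melanophore genes 5 were higher and 1 lower. Of 36 ionocyte genes 12 were higher and 2 lower in D, while 8 were lower in A. These counts stand beside 21.6% of all genes higher and 4.41% lower in D, and 17.5% lower in A, a share near that of the ionocyte list.

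Of 24 tested red blood cell genes 6 were at least 2-fold higher in D and 2 lower, beside 21.6% and 4.41% of all genes, and the list's median in D was 0.67 log2 units, or 0.29 with quantile normalization. RHAG, an ammonium channel of the red cell membrane, had a median of 1125 in D and 345 in A. hemgn, a nuclear protein of erythroid cells, had 81.4 in D and 388 in A, and EPB41, a membrane skeleton protein, 438 and 1564. FOS, an immediate early gene, spread widely within sets. Between sets its medians ran from 95.0 in C to 469 in A, and it also changed with dose (limma F test, adjusted p = 0.0255).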
